A study of Bos grunniens with 6 samples.

Results

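Junction genes were examined in the m6A peak list of cattle-yak testis, where 157 of 16186 peaks carried the symbol of a claudin, tight junction, cadherin, catenin, nectin, desmosome, connexin, protocadherin or polarity scaffold gene. Members were picked by symbol alone, with *CLDN11* set aside, so carrying a peak was a condition of entry and not a result. The 157 peaks belonged to 64 gene identifiers with 59 symbols, of 8986 identifiers with a peak, and all 64 had an expression value. Testes were taken by castration from 3 cattle-yaks, sterile male hybrids of yak and cattle, at 5 years of age, and each animal (TES5, TES6 or TES7) gave 1 library of RNA pulled down with an antibody against m6A (IP) and 1 library of the same RNA before the pull-down (input). All animals formed 1 condition, with no treatment and no fertile control among the libraries used here. The peaks came as 1 list for the group without scores or values per animal, whereas the input libraries gave 1 FPKM value (fragments mapped to a gene, scaled by its transcript length and by the library total) per gene and animal. FPKM is scaled by length, so that levels of different genes can be set side by side, but in whole testis a higher level in each cell and a larger number of such cells cannot be told apart.

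Cell junctions hold neighbouring cells together and seal the space between them. Claudins and scaffold proteins such as ZO-1 build tight junctions, cadherins bind the same cadherin on the next cell and are tied to actin by catenins, desmosomes anchor intermediate filaments, and connexins form channels between cells. In the testis, Sertoli cells join near the base of the seminiferous tubule to form the blood-testis barrier, behind which meiosis takes place, and nectins and N-cadherin attach germ cells to Sertoli cells. m6A is a methyl mark on adenosines of mRNA that is usually found in long exons and near stop codons.

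The symbols in the peak list were first set against the other annotation of the same identifiers. A GO term containing the words adhesion, junction, cadherin, catenin, connexin, desmosome or polarity was listed for 37 of 64 identifiers, no GO term for 8, and other terms only for 19. The 8 without a term were *DSP*, *DSG2*, *FAT1*, *AFDN*, *CTNNA2*, *CTNNAL1*, *CDH3* (ENSBGRG00000014604) and *PCDHGB5*. Of these, *DSP*, *DSG2* and *AFDN* had a pathway that named cardiomyopathy or junctions. *CTNNAL1* and *PCDHGB5* had the pathway Herpes simplex virus 1 infection, as had both identifiers labelled *CTNNB1*, and this *CDH3* identifier had lysine degradation. Among the 19, ENSBGRG00000012514, labelled *CLDN19*, carried terms for RNA binding and mRNA processing and 8 exons. The identifier labelled *NECTIN2* (ENSBGRG00000024784) carried ribosome terms, *GJA9* (ENSBGRG00000005276) GTPase and TOR signalling terms, and both identifiers labelled *CTNNB1* DNA-binding transcription factor terms. *CLDN5* and *CTNNA1* counted among the 37 through the terms cell adhesion and cell junction, although their other terms named platelet activation and synapses. In RefSeq's annotation of another yak assembly (Bosgru_T2T1.0), the 3 protein-coding genes on either side of *CLDN19* included *YBX1*, an RNA-binding protein, those beside *GJA9* included *RRAGC*, a GTPase of TOR signalling, and those beside *CLDN5* included *GP1BB*, a platelet receptor subunit. Those beside *CTNNB1* included *ZNF619*, by its symbol a zinc finger gene. By contrast, the 3 genes on either side of *NECTIN2* included no ribosomal protein gene. Of those beside *PCDH18*, where 1 identifier carried Notch terms, only *NOCT* and *SLC7A11* were named. These neighbours were picked after the terms were seen, and which gene such an identifier stands for was not tested. The identifiers are therefore named below as the list labels them, with this limit repeated for the few that lead a group. A further 8 members, labelled *DLG1*, *PKP2*, *MAGI2*, *CDH19*, *CDH23*, *CLDN19* and, on 2 identifiers, *PKP4*, carried RNA-directed DNA polymerase activity, a retrotransposon term that 1326 identifiers with a peak shared. *CTNNBL1* matched the symbol pattern but encodes a spliceosome-associated protein rather than a junction protein.

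Most junction peaks lay in the exon class, which in this annotation holds exons other than the parts assigned to UTRs. The exon class held 138 of 157 peaks (87.9%, Wilson 95% interval 81.9% to 92.1%), the 3' UTR class 16 (10.2%, 6.37% to 15.9%) and the 5' UTR class 3 (1.91%, 0.652% to 5.47%). Over all 16186 listed peaks the shares were 70.3%, 20.8% and 8.82%, and the intervals of the junction genes did not reach them. The intervals cover counting error only, and several peaks shared a gene, so the shares are given as a description. Without the clustered protocadherins, whose 25 peaks all fell in the exon class, the exon share was 85.6% (78.6% to 90.6%). Among the 90 peaks of identifiers with a junction or adhesion term it was 90.0% (82.1% to 94.6%). The 3 single-exon transcripts among the members, of *GJA1*, *GJB5* and *CDH3* (ENSBGRG00000014604), had spans that were multiples of 3, a coding length, as had all 320 such transcripts with a peak.

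**Figure D1:**
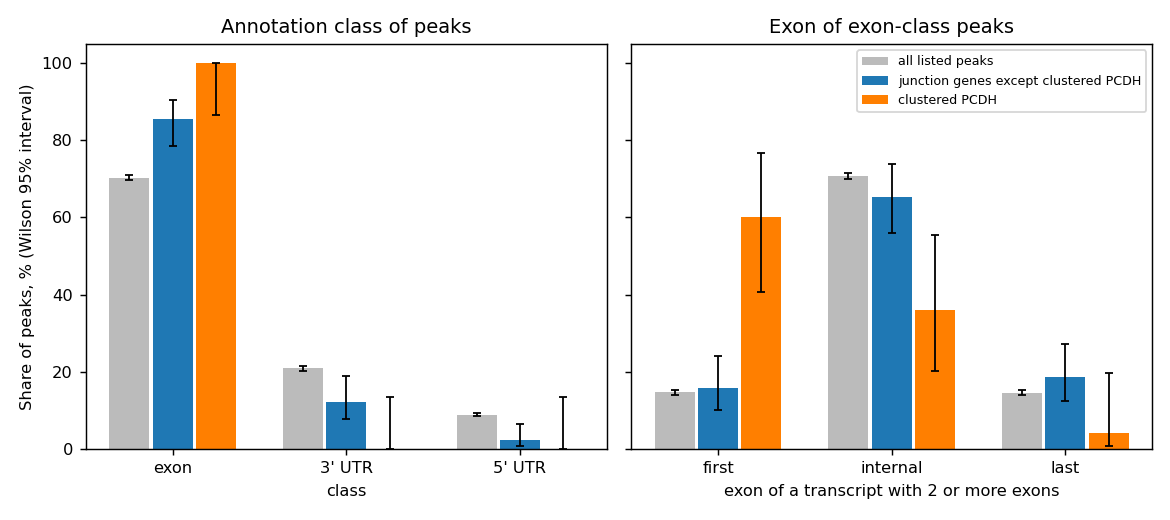
Share of peaks (%, bars, with Wilson 95% intervals that cover counting error only) by annotation class on the left and, for exon-class peaks on transcripts of 2 or more exons, by exon on the right, for all listed peaks, junction genes without the clustered protocadherins, and clustered protocadherins. The clustered protocadherins stood at 100% in the exon class and at 60.0% in the first exon, and the other junction genes at 85.6% and 15.9%.

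Exon-class peaks on transcripts with 2 or more exons were placed by exon number. Of 132 such peaks on junction genes, 32 (24.2%, 17.7% to 32.2%) lay in the first exon, 79 (59.8%, 51.3% to 67.8%) in an internal exon and 21 (15.9%, 10.6% to 23.1%) in the last. Over all 10892 such peaks the shares were 14.7%, 70.8% and 14.5%. The annotation names 1 exon for each peak although a wide peak may span several, so these exon numbers do not give the full extent of a peak. Of 73 peaks annotated to an internal exon of their own identifier, 6 reached within 100 bp of the 3' end of the listed transcript (8.22%, beside 12.7% of 7543 in the whole list), namely 1 each on *AFDN*, *CDH2*, *CDH11*, *DLG1*, *DLG5* and *MAGI1*. With these, 26 of 121 (21.5%) lay in the last exon or at the 3' end, beside 23.3% of 10401 in the whole list. The protocadherins held most of the first-exon peaks. In protocadherins 22 of 38 peaks (57.9%, 42.2% to 72.1%) lay in exon 1, against 10 of 94 (10.6%, 5.88% to 18.5%) in the other junction genes. A protocadherin gene carries nearly its whole extracellular cadherin region on a single large first exon, as background. Leaving out *PCDHGA4*, the protocadherin with the most peaks, 13 of 24 (54.2%) lay in exon 1.

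Junction peaks ran from 147 bp to 332623 bp on the genome, introns included, with a median of 599 bp (order-statistic 95% interval 401 to 1206 bp), beside a median of 1022 bp over all listed peaks. Without the clustered protocadherins the median was 1100.5 bp (595 to 1648 bp), so the lower value rested on that array. Peak width moved with expression. On members that reached an FPKM of 1 in all 3 input libraries, called expressed here, 108 peaks had a median width of 1636.5 bp, and 43 of them (39.8%) were at most 1000 bp wide. On members below that level in some library, 49 peaks had a median of 249 bp, and 46 of them (93.9%) were at most 1000 bp wide. These 49 included every clustered protocadherin peak except that of *PCDHGB5*, and *PCDHGA4* alone held 14. The split of members was not made without that array. Over all listed peaks the same split gave medians of 1236 bp and 300 bp, and 47.0% and 70.0% of at most 1000 bp. By role, the medians were lowest in the clustered protocadherins (201 bp) and the classical and type II cadherins (246 bp), and highest in the catenins (3977 bp) and the polarity scaffolds (11620.5 bp). The widest peak covered 332623 bp of *CTNNA2*, the alpha-catenin best known from neurons, in its 5' UTR class, and took up 22.1% of a listed transcript span of 1508046 bp. The narrowest covered 147 bp of the *CDH3* identifier without a GO term (ENSBGRG00000014604). Across the 64 members, the Spearman correlation of median peak width with transcript span was 0.34, and that of peak number with span was 0.46. Over all 8986 identifiers with a peak the same values were 0.29 and 0.29, given as descriptions without a p-value.

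**Figure D2:**
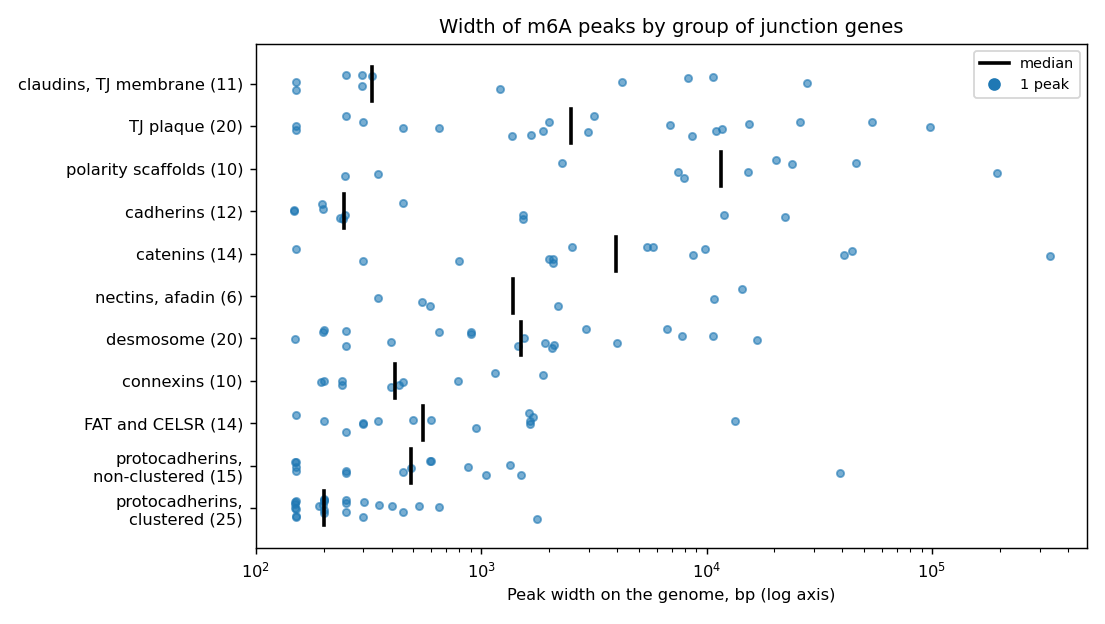
Width of each of the 157 junction peaks on the genome (bp, log axis) by role, with the number of peaks in parentheses and the median as a black bar. Clustered protocadherin peaks ran from 149 to 1759 bp, and the polarity scaffolds had the highest median, 11620.5 bp.

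Of 93 pairs of neighbouring peaks on the same identifier, 12 (12.9%) lay within 100 bp of each other or overlapped, on 10 identifiers, beside 12.4% of 7200 pairs in the whole list. Among the 12 gaps of the junction genes, 11 were 95 to 100 bp. Merging these pairs left 145 intervals. More than 1 peak was listed for 35 of 64 members (54.7%, 42.6% to 66.3%), beside 46.0% of all identifiers with a peak, and 4 or more for 12 members (18.8%, 11.1% to 30.0%), beside 7.92%. These 12 members held 72 of the 157 peaks. On merged intervals 51.6% of members had a single one, beside 45.3% of members before merging. Members also had a longer median transcript span, 59783 bp beside 27894.5 bp over all identifiers with a peak. Whether span accounts for the peak numbers was not tested.

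**Figure D3:**
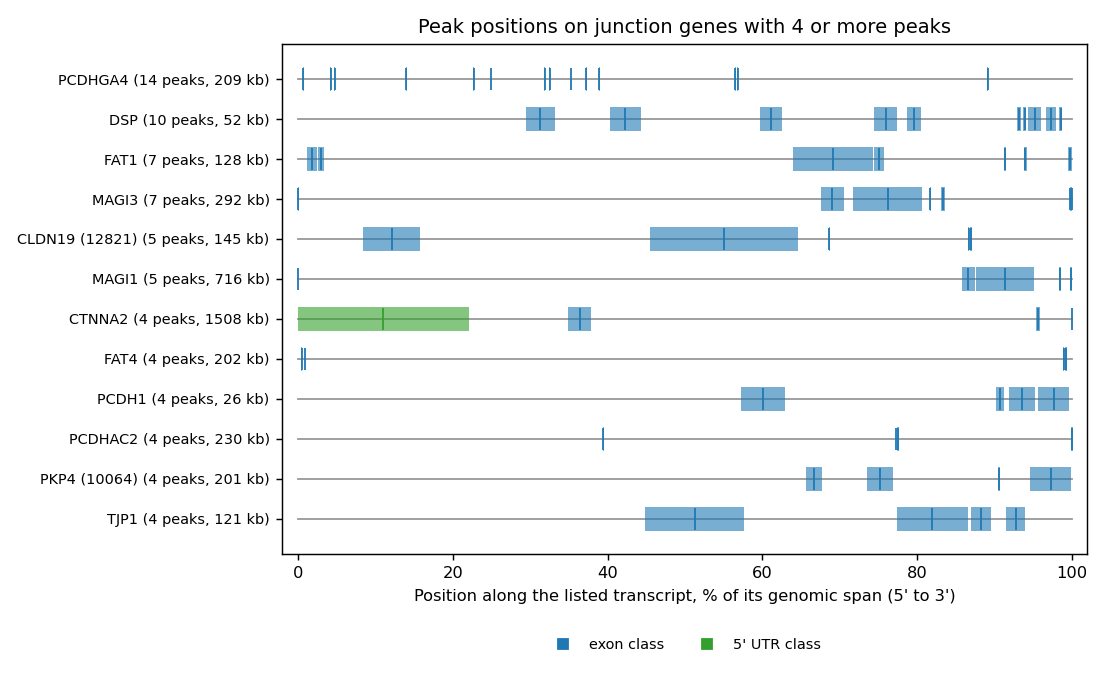
Position of peaks along the listed transcript (% of its genomic span, 5' to 3', introns included) on the 12 junction genes with 4 or more peaks, with shaded blocks for the width, ticks for the centre and colours for the annotation class. Labels give peaks and span. *DSP* has 5 of 10 peaks at its 3' end, *FAT4* has 2 in its first and 2 in its last exon, and *PCDHGA4* has 14 narrow peaks spread along its span.

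All 3 input libraries reached an FPKM of 1 for 44 of 64 members (68.8%, 56.6% to 78.8%), whereas 86.9% of all identifiers with a peak and 54.4% of all 20953 listed genes reached it. The median over members of the mean FPKM was 3.27, beside 7.36 over identifiers with a peak and 2.11 over all listed genes. Mean FPKM was at least 10 for 19 members and below 1 for 18. Identifiers with a junction or adhesion term had a median of 2.09 (n = 37), those with other terms only 4.15 (n = 19), and those without a term 5.80 (n = 8). Values of the 63 members above 0 in every animal correlated at Pearson's r of 0.98 to 0.99 on log2(FPKM + 1) between animals, as did the 15574 listed genes above 0 in every animal. The median coefficient of variation (CV) between animals over the 44 expressed members was 12.1%, beside 11.6% over expressed identifiers with a peak.

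**Figure D4:**
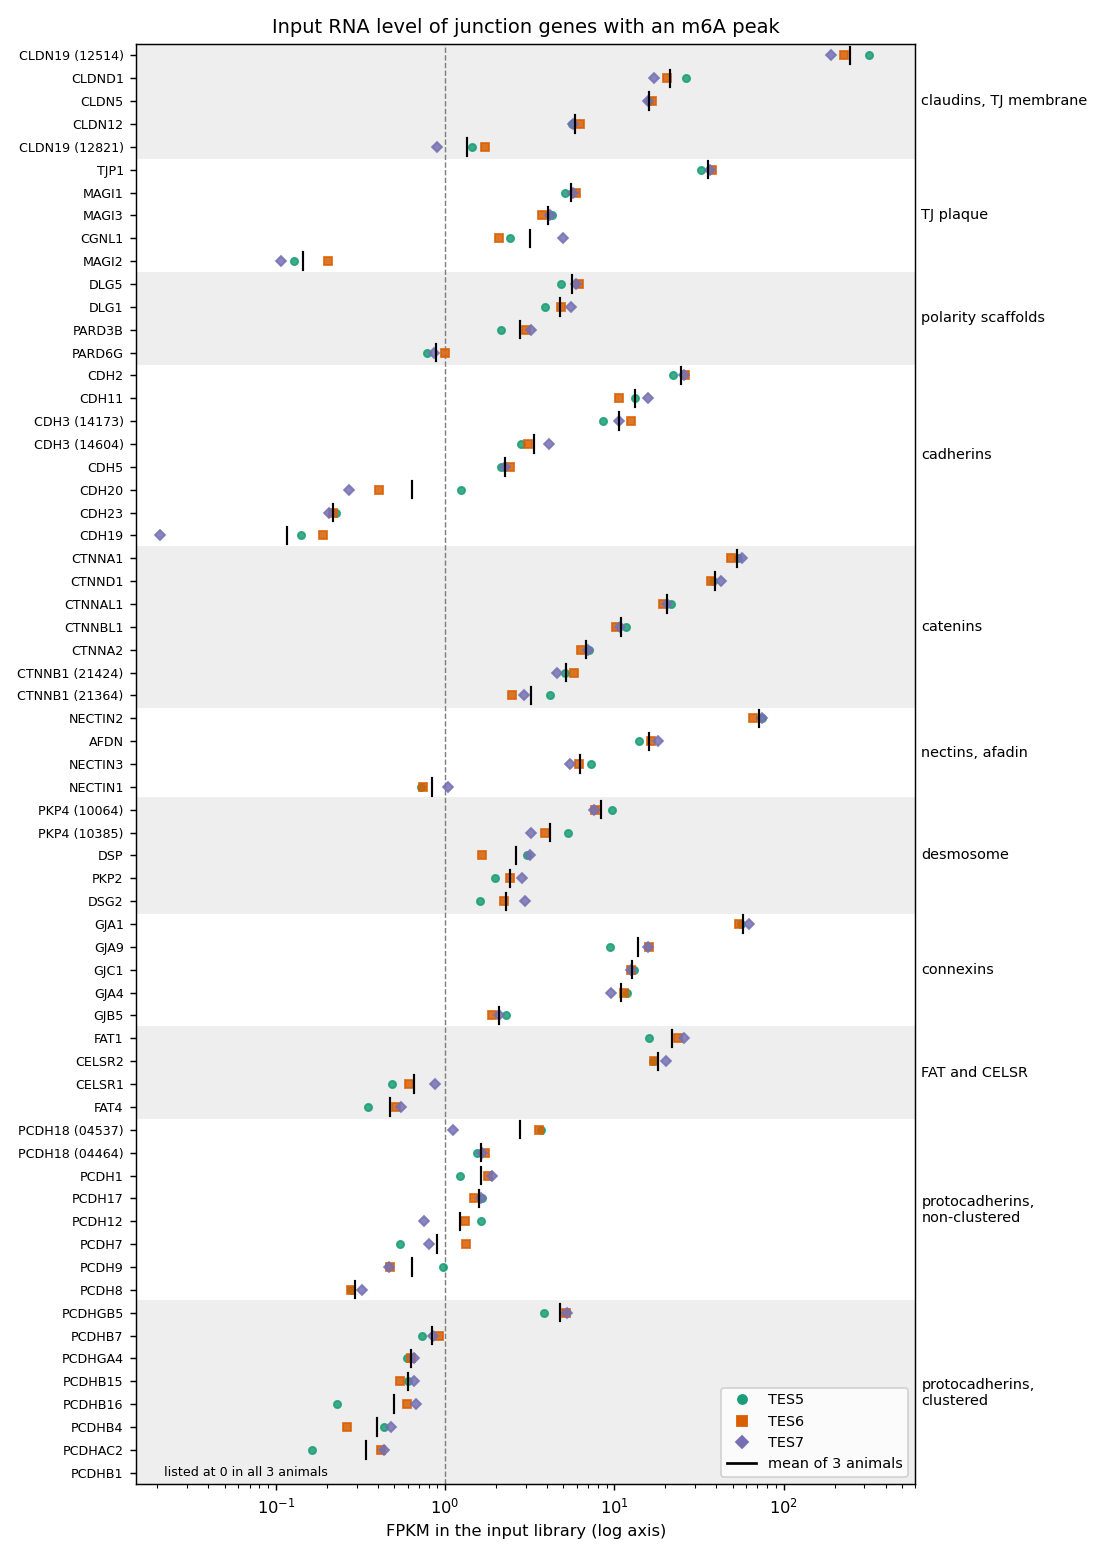
FPKM in the input library of TES5, TES6 and TES7 (points, log axis) and their mean (black bar) for 63 of the 64 junction identifiers by role, where the dashed line marks an FPKM of 1 and numbers in parentheses are the last digits of the identifier for symbols listed on 2. *CLDN19* (ENSBGRG00000012514), *NECTIN2*, *GJA1* and *CTNNA1* lie to the right, and 7 of the 8 clustered protocadherins lie below 1, including *PCDHB1*, listed at 0.

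Claudins are the membrane proteins that seal tight junctions, and 5 identifiers with 4 claudin symbols carried 11 peaks. *CLDN12* (ENSBGRG00000020741, LU_Bosgru_v3.0, chromosome 4 from 122489213 to 122503065), whose terms name the bicellular tight junction, had FPKM values of 5.66 in TES5, 6.24 in TES6 and 5.71 in TES7, and 1 peak of 250 bp in exon 2 of 3. *CLDN5*, the claudin of endothelial tight junctions that is also found in Sertoli cells, stood at 15.9, 16.6 and 15.7, with a peak of 1206 bp in exon 7 of 12 and 1 of 329 bp in the 3' UTR class, under the limit on its terms given above. The animals were close to each other in both, with CVs of 5.47% and 3.05%.

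The identifier labelled *CLDN19* with RNA-binding terms had the highest level of all members, 319.8 in TES5, 227.0 in TES6 and 189.5 in TES7 (mean 245 ± 67.0, SD, n = 3). TES5 was highest and TES7 lowest, by 1.69-fold. Its peaks were 1 of 8231 bp in the 3' UTR class, which took up 39.9% of the listed transcript, and 1 of 150 bp in exon 1 of 8. The second *CLDN19* identifier (ENSBGRG00000012821) stood at 1.44, 1.72 and 0.896 with 5 peaks, 3 of which were annotated to exons of 2 other identifiers. *CLDND1*, a claudin-domain protein whose role at junctions is less defined, had values of 26.4, 20.4 and 17.3 and 1 peak of 4194 bp. As with the first *CLDN19* identifier, TES5 was highest and TES7 lowest.

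*TJP1*, which encodes the tight junction scaffold ZO-1, was the most strongly expressed plaque gene. It lies on chromosome 17 from 29988447 to 30109627 (ENSBGRG00000012231), with FPKM values of 32.4, 37.9 and 36.7 (mean 35.7 ± 2.89, SD, n = 3). Its 4 peaks lay in exons 4, 13, 20 and 24 of 28 and were 2986 to 15443 bp wide, and none was annotated to its last exon. *MAGI3* and *MAGI1*, PDZ scaffolds of tight junctions, carried 7 and 5 peaks at lower levels, 4.26, 3.73 and 4.18 for *MAGI3* and 5.12, 5.93 and 5.68 for *MAGI1*. Both had a narrow peak in exon 1, of 250 bp and 150 bp, and *MAGI3* had 2 in its last exon 21. *MAGI2*, a synaptic and podocyte scaffold, had 1 peak of 1999 bp in exon 17 of 23 at an FPKM of 0.107 to 0.202.

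*CGNL1*, encoding the cingulin-like plaque protein paracingulin, differed most between animals in this group. FPKM was 2.42 in TES5, 2.08 in TES6 and 4.97 in TES7, a CV of 50.1%. TES7 lay above both others, by 2.39-fold over the lowest. Its 3 peaks included 1 of 97935 bp, 75.2% of the transcript span on chromosome 11 from 39995857 to 40126074.

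Polarity scaffolds set up the apical and basal sides of epithelial cells, and 9 of their 10 peaks were in the exon class, the other in the 3' UTR class of *PARD3B*. *DLG5* stood at 4.83, 6.15 and 5.97 and *DLG1* at 3.89, 4.84 and 5.53, with 3 peaks each. Each had 1 peak, annotated to exon 17 of 19 and exon 22 of 25, that reached to 100 bp from the 3' end of its transcript. *PARD3B*, a paralog of the tight junction polarity protein PARD3, had values of 2.13, 2.99 and 3.21 and a pair of adjoining peaks of 194983 bp and 46065 bp separated by 98 bp. *PARD6G*, the adaptor that couples PARD3 to atypical protein kinase C, had values of 0.780, 0.999 and 0.856 and 1 peak of 249 bp in its last exon. In these 4 genes TES5 was the lowest animal, as it was in 37.6% of all expressed genes.

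*CDH2* encodes N-cadherin, the cadherin between Sertoli cells and germ cells, and had the highest level of the 8 cadherin identifiers. FPKM was 22.2, 26.0 and 25.6 (mean 24.6 ± 2.12, SD, n = 3) for ENSBGRG00000023975 on chromosome 21 from 24178992 to 24455597. Its peaks lay in exon 14 of 17 (22291 bp) and exon 16 of 17 (1526 bp), and the second reached to 50 bp from the 3' end. *CDH11*, a mesenchymal cadherin, followed at 13.2, 10.6 and 15.7, with peaks annotated to exon 4 and exon 11 of 12, the latter ending at the 3' end of the transcript. *CDH3* (P-cadherin, ENSBGRG00000014173) had 8.61, 12.6 and 10.6 and 1 peak of 199 bp in exon 18 of 18.

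*CDH5*, the cadherin of endothelial cells, had an FPKM of 2.13, 2.41 and 2.25 and 1 peak of 248 bp in its last exon, exon 14. *CDH20* and *CDH23*, the latter best known from the tip links of hair cells, each had 1 peak in the 3' UTR class at mean FPKM values of 0.642 and 0.217. *CDH20* was at 1.25 in TES5 and at 0.409 and 0.270 in TES6 and TES7. *CDH19* had values of 0.140, 0.189 and 0.0207, and both of its peaks, 237 bp and 148 bp wide and 97 bp apart, were annotated to exon 1 of ENSBGRG00000020230, which had 4.94, 4.88 and 4.20. A peak listed for *CDH19* thus lay over an exon of a more strongly expressed identifier.

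Catenins link cadherins to actin, and all 7 identifiers with a catenin symbol passed an FPKM of 1 in every library, as did 86.9% of identifiers with a peak. *CTNNA1*, the symbol of alpha-E-catenin, here on the identifier with synapse terms, stood at 53.7, 49.0 and 57.0 (mean 53.2 ± 3.99, SD, n = 3) with a peak of 9832 bp in exon 4 of 17 and 1 of 796 bp in the 3' UTR class at its 3' end. *CTNND1*, p120-catenin, which holds cadherins at the membrane, had 38.5, 37.4 and 42.4 and was the only member with peaks in both UTR classes, 1 in the 5' UTR (2074 bp) and 2 in the 3' UTR (5757 bp and 298 bp). The 2 identifiers labelled *CTNNB1*, the symbol of beta-catenin, had 4.18, 2.49 and 2.93 (ENSBGRG00000021364) and 5.10, 5.80 and 4.61 (ENSBGRG00000021424), with 5 and 3 exons, and carried DNA-binding rather than junction terms. Of the 14 catenin peaks 8 were in the exon class, 3 in the 3' UTR and 3 in the 5' UTR, so that all 5' UTR peaks of the junction genes were on *CTNNA2*, *CTNNBL1* and *CTNND1*. *CTNNA2* stood at 7.10, 6.39 and 7.02 with 4 peaks, and *CTNNAL1*, the symbol of alpha-catulin, at 21.7, 19.4 and 20.5 with 2, both on identifiers without a GO term.

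Afadin, encoded by *AFDN*, ties nectins to actin at the junctions between Sertoli and germ cells. It stood at 13.9 in TES5, 16.4 in TES6 and 18.0 in TES7, with 3 peaks annotated to exons 7, 28 and 31 of 34, the last of which, 14398 bp wide, reached to 50 bp from the 3' end. *NECTIN3*, the nectin of germ cells, had 7.24, 6.15 and 5.50 and 1 peak of 544 bp in its last exon. *NECTIN1* had 0.722, 0.737 and 1.04 and 1 peak of 349 bp in the 3' UTR class. *NECTIN2*, the Sertoli nectin, was listed at 74.3, 65.8 and 74.3 (mean 71.4 ± 4.91, SD, n = 3) with 1 peak of 593 bp in the 3' UTR class, on the identifier that carried ribosome terms. Levels of these 4 identifiers did not overlap between any pair of them over the 3 animals, and how often other genes differ so was not analysed.

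Desmosome symbols held 20 peaks on 5 identifiers, all in the exon class, at mean FPKM values of 2.28 to 8.36. *DSP*, encoding desmoplakin, which anchors intermediate filaments, carried 10 peaks, the second highest number among the members. It lies on chromosome 24 from 52374379 to 52426130 (ENSBGRG00000016985), and 5 of its peaks, 200 to 899 bp wide, were in exon 27 of 27, the others in exons 4, 6, 15, 23 and 25. FPKM was 3.06 in TES5, 1.64 in TES6 and 3.16 in TES7. TES6 was the low animal, by 1.92-fold under the highest. *DSG2*, a desmosomal cadherin, had 1.61, 2.24 and 2.98 and peaks in exons 3, 6 and 14 of 15. *PKP2*, a plakophilin, had 1.97, 2.43 and 2.86 with narrow peaks of 149 bp and 199 bp in exons 1 and 3 of 13. In *DSG2* and *PKP2* TES5 was lowest and TES7 highest. *PKP4*, the symbol with the highest level in this group, was listed on 2 identifiers that carried the retrotransposon term, with 8.36 ± 1.18 (ENSBGRG00000010064, 4 peaks) and 4.15 ± 1.08 (ENSBGRG00000010385, 1 peak), each mean ± SD over the 3 animals.

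*GJA1*, encoding connexin 43, the main gap junction protein of Sertoli cells, had the highest level of the 6 connexin identifiers. FPKM was 55.8, 54.3 and 62.2 (mean 57.4 ± 4.20, SD, n = 3) on chromosome 10 from 62658303 to 62659454 (ENSBGRG00000009758). Its listed transcript is a single exon of 1152 bp, and its 2 peaks of 241 bp and 433 bp covered 20.9% and 37.6% of it. *GJC1*, connexin 45, had 13.0, 12.5 and 12.6, a CV of 2.11% that was the lowest among the expressed members, with 1 peak of 397 bp in its last exon. *GJA4*, connexin 37 of endothelium, had 11.8, 11.4 and 9.55 and 1 peak in the 3' UTR class. *GJB5* had 2.30, 1.90 and 2.07 with 2 peaks 96 bp apart. *GJA9*, with the terms described above, had 9.41, 16.0 and 15.7 (mean 13.7 ± 3.72, SD, n = 3), so that TES5 lay below the others, and 1 peak of 1155 bp in exon 2 of 7.

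*FAT1*, a giant cadherin that regulates cell polarity and growth, combined a high level with many peaks. It stood at 15.9 in TES5, 23.8 in TES6 and 25.7 in TES7, so that TES5 lay below the others, and carried 7 peaks on chromosome 28 from 39480234 to 39608094 (ENSBGRG00000015602). Of these, 2 lay in exon 2 of 28, a pair of 13346 bp and 1648 bp in exons 9 and 10, and 3 in exons 23, 26 and 28. *CELSR2*, a planar polarity receptor, had 16.9, 17.2 and 20.2, and its 2 peaks of 1629 bp and 1644 bp lay in exons 2 and 3 of 36. *FAT4* and *CELSR1* were low, at 0.350, 0.511 and 0.549 and at 0.484, 0.613 and 0.876. *FAT4* nevertheless had 4 peaks of 150 to 500 bp, 2 in exon 1 and 2 in exon 18 of 18. TES5 was the lowest animal in all 4 genes and TES7 the highest. Over all expressed genes, TES5 was lowest in 37.6% and TES7 highest in 32.4%.

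Non-clustered protocadherins carried 15 peaks on 8 identifiers, 4 of which reached an FPKM of 1 in every library. *PCDH1*, an epithelial protocadherin, had 4 peaks in exons 2, 4 and 5 of 5 and an FPKM of 1.23, 1.79 and 1.88. *PCDH7* had 3 narrow peaks of 151, 600 and 151 bp, all in exon 1 of 4, at 0.540, 1.33 and 0.805. *PCDH12*, an endothelial protocadherin, stood at 1.63, 1.32 and 0.753 with 2 peaks in exon 1 and 1 in exon 4. *PCDH17* had a single peak of 39184 bp, the only one of this group over 10000 bp. The largest CV of the expressed members, 52.0%, was that of ENSBGRG00000004537, labelled *PCDH18*, with 3.67 in TES5, 3.58 in TES6 and 1.12 in TES7. TES7 stood apart there, by 3.29-fold. The terms of that identifier were for Notch signalling and behaviour, and the other *PCDH18* identifier (ENSBGRG00000004464), which had the adhesion term, stood at 1.54, 1.73 and 1.65.

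Clustered protocadherins are arrayed in tandem and give neurons their surface identity. In the alpha and gamma clusters, but not in the beta cluster (*PCDHB* symbols), each variable first exon is spliced to shared constant exons. Here 8 identifiers carried 25 peaks on chromosome 8, 15.9% of all junction peaks. Apart from *PCDHGB5*, these lay between 56509052 and 57185301, a stretch of 676 kb that held 29 listed peaks, of which 5 belonged to no member. All 25 were in the exon class, and 24 were at most 1000 bp wide. On transcripts of 2 or more exons, 15 of 25 (60.0%, 40.7% to 76.6%) were in exon 1. Genes of the array are closely related in sequence and only uniquely mapped reads were kept, so the values of single genes are uncertain.

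*PCDHGA4* (ENSBGRG00000024033, chromosome 8 from 56999381 to 57207978) carried 14 peaks, more than any other member, at an FPKM of 0.593, 0.633 and 0.659. The peaks were 149 to 401 bp wide and together covered 3254 bp of a span of 208598 bp. They were annotated to exons of 11 different transcripts, and 4 of them to exons of 3 other identifiers, with FPKM values between 0.282 and 0.856. *PCDHAC2* had 4 peaks at 0.164, 0.419 and 0.436, of which 3 were in exon 1. *PCDHB7*, *PCDHB15* and *PCDHB16* had 1 exon 1 peak each at mean FPKM values of 0.832, 0.600 and 0.499, and *PCDHB4* had 1 in exon 2 of 4 at 0.395. *PCDHB1* was listed at 0 in every animal, and both of its peaks of 200 bp were annotated to exon 2 of *PCDHB4*, which overlaps it on the opposite strand. How reads of overlapping genes were assigned was not given in the sources used here. The identifier labelled *PCDHGB5* was the exception in level, with 3.84, 5.16 and 5.28, and had 1 peak of 1759 bp in exon 13. It had 19 exons on the minus strand and no GO term, beside 2 exons for *PCDHB15* and 5 for *PCDHGA4* on the plus strand. Whether it is a clustered protocadherin was not tested. Of the 7 identifiers above 0, TES5 was the lowest animal in 5, beside 37.6% of all expressed genes. All of the 7 except *PCDHGB5* lay below an FPKM of 1, where the order of animals is uncertain.

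Peak number and expression showed little relation across the members. Spearman's rho of peak number and mean FPKM was 0.14 over 63 members above 0 and 0.0099 over the 44 expressed ones, beside -0.021 over 8630 identifiers with a peak. *PCDHGA4* and *DSP* had many peaks at low levels, whereas *NECTIN2* and *CTNNA1* had 1 and 2 at high levels. The points share their libraries and the peak list, so these are descriptions without a p-value.

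**Figure D5:**
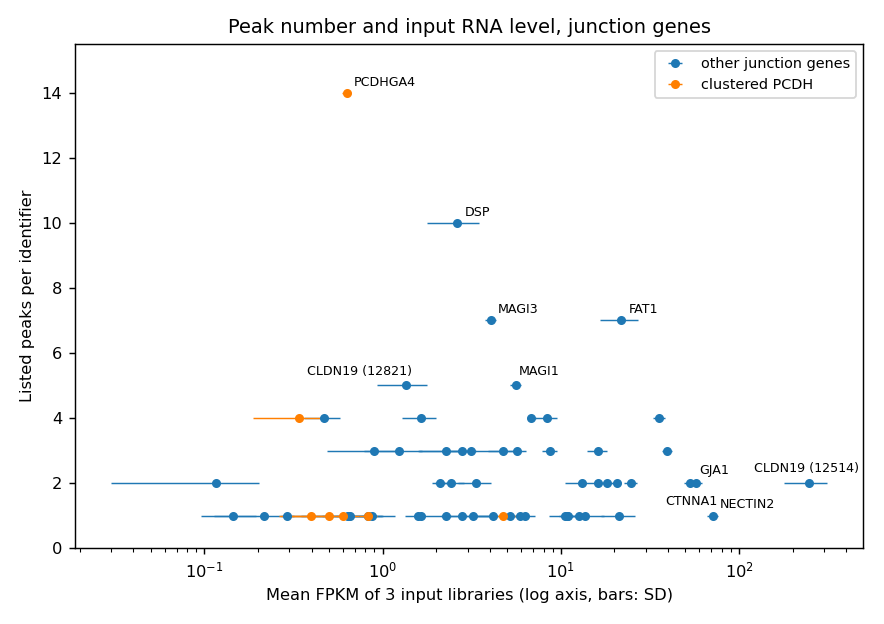
Listed peaks per identifier against the mean FPKM of the 3 input libraries (log axis, bars are SD) for the 63 junction identifiers above 0, with the clustered protocadherins in orange. *PCDHGA4* has 14 peaks at 0.628 and *CLDN19* (ENSBGRG00000012514) 2 peaks at 245, and the points show no slope, with a rho of 0.14.

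The animals differed little as a whole. The highest animal was at least 1.5 times the lowest in 12 of the 44 expressed members (27.3%, 16.3% to 41.8%), beside 17.8% of expressed identifiers with a peak and 20.7% of all expressed genes. These were *PCDH18* (ENSBGRG00000004537), *CGNL1*, *DSP*, *DSG2*, *GJA9*, *CLDN19* (ENSBGRG00000012514), *CTNNB1* (ENSBGRG00000021364), *PKP4* (ENSBGRG00000010385), *FAT1*, *CLDND1*, *PCDH1* and *PARD3B*. TES5 was lowest in 43.2% of the expressed members and in 37.6% of all expressed genes, and TES7 in 22.7% and 30.4%. Summed by role, the giant cadherins ran from 33.7 in TES5 to 42.2 in TES6 and 47.2 in TES7, and the claudin symbols in the opposite order, from 369 to 272 and 229, which followed the *CLDN19* identifier named above. With 3 animals of 1 condition no test of an animal was possible.

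A list of 32 genes known for the blood-testis barrier and Sertoli-germ cell contacts was set beside the peak list. Peaks were listed under 17 of the 32 symbols, on 18 identifiers, beside 8775 of all 20953 genes with an FPKM value. Of these 18 identifiers, 17 reached an FPKM of 1 in every animal, beside 86.9% of all identifiers with a peak. The exception was *NECTIN1*. Summed FPKM of the 18 was 338 to 371 in the 3 animals. This sum included identifiers under the limit on terms given above. By mean FPKM these were *NECTIN2* (71.4), *CTNNA1* (53.2), *CLDN5* (16.1) and the *CTNNB1* identifiers (3.20 and 5.17), besides *DLG1* and *PKP2* with the retrotransposon term. Symbols without a listed peak included *CLDN1*, *CLDN3*, *OCLN*, *TJP3*, *CGN*, *F11R*, *JAM2*, *JAM3*, *CDH1*, *CADM1*, *DSC2*, *PARD3*, *PARD6A* and *PARD6B*, and as symbols are given for genes with a peak alone, their expression was not analysed here. Of 48 other junction genes outside the symbol pattern, 26 had a peak, again beside 8775 of 20953 genes. Among the 26 were *VCL*, vinculin, at 34.5, 39.5 and 46.0, and *CXADR*, a junctional receptor on Sertoli and germ cells, at 1.04, 0.765 and 0.935, each with 1 peak. No peak was listed under *CLDN11* or *JUP*. Among annotated terms, 35 identifiers with a peak carried homophilic cell adhesion, and 23 of them were members. The KEGG tight junction pathway held 41 identifiers with a peak, of which 5 were members (*AFDN*, *CGNL1*, *MAGI1*, *PARD6G* and *TJP1*).

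Markers of the cells that build these junctions were checked in the same input libraries. Of 8 Sertoli markers 4 had a peak and therefore a symbol, and *SOX9* stood at 26.7, 27.5 and 28.4 and *WT1* at 24.0, 33.3 and 31.5. All 4 peritubular myoid markers (summed FPKM 287 to 326) and all 4 endothelial markers (22.4 to 25.2, 2 of which, *CDH5* and *CLDN5*, are members) had a peak. Without *CLDN5*, whose identifier carried platelet terms, the endothelial sum was 6.71 to 8.59. Of 6 Leydig markers, *STAR* had one, at 100.2 to 112. Spermatogonial markers with a peak (3 of 8) summed to 15.8 to 24.2, spermatocyte markers (3 of 6, on 6 identifiers) to 32.7 to 44.2, macrophage markers (3 of 3) to 11.7 to 14.5, and none of 6 spermatid markers had a peak. For scale, 8775 of all 20953 genes with an FPKM value had a peak. The levels of markers without a peak were not analysed here. How much each cell type gave to the junction values was not tested.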

How the data were processed

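Poly(A) RNA of testis from 3 cattle-yaks was fragmented and sequenced before (input) and after m6A immunoprecipitation (IP). The authors trimmed reads with Trimmomatic, removed ribosomal RNA with SortMeRNA, aligned with HISAT2 (version 2.0.4 in the submitters' processing notes) to LU_Bosgru_v3.0 (Ensembl release 99) and kept uniquely mapped reads. Peaks of IP over input were called with MeTDiff and annotated with ChIPseeker. The peak list, deposited by the authors as 1 list for the group, holds positions and widths in bp with annotation and no scores. FPKM values were deposited by the authors for 3 input libraries. The program behind them was not given in the sources used here. FPKM is no read count, so no count model was used, and the depth of the libraries and the limit of detection of a gene are unknown from the files.

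Peaks were selected by gene symbol and joined to FPKM by identifier. All members had an FPKM row. Members, role groups and gene lists were chosen with earlier results of these data known. Peaks, widths, classes and exons were counted, with Wilson 95% intervals for shares. FPKM was given per animal and as mean ± SD, with a minimum of 1 for an expressed gene. Genes were named by role in the blood-testis barrier, most peaks, highest level and most peaks per role group, largest CV, mean FPKM under 0.1, extreme peak width and exons of another identifier; all others in the text complete the role groups or counts and were chosen after their values were seen. With 1 condition no contrast was tested, and no p-value is given. Merging was tested on simulated gaps well below or well above 100 bp, and not on gaps near that cut. Intervals were tested on independent simulated draws, whereas several real peaks shared a gene. Alternatives were unique or merged intervals (gap of 100 bp), width of at most 1000 bp, weighting by width, another minimum FPKM (0.5) or pseudocount (0.1 for 1), rescaled libraries and each animal left out. Results for a few named genes are not reported here. No genome of this build was used here, so motifs, sequences and exonic peak widths were not analysed. The tools were SciPy 1.17.1, pandas 2.3.3 and numpy 2.4.6 under Python 3.11.15, with figures by matplotlib 3.10.9.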

Additional observations from a re-analysis of the deposited data

How the results depend on the processing

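The number of junction peaks stayed between 108 and 157 under unique or merged intervals, expressed members only, and the gene of the annotated exon. Weighted by width, the exon share was 69.2%, the 3' UTR share 1.69% and the 5' UTR share 29.1%, since the 332623 bp peak of *CTNNA2* enters with its whole width, and among peaks of at most 1000 bp the 5' UTR share was 0%. The median width was 1636.5 bp on expressed members and 1100.5 bp without the clustered protocadherins. The number of expressed members was 44 to 46 with each animal left out and 52 with a minimum FPKM of 0.5. Among the 37 identifiers with a junction or adhesion term, a smaller set, it was 22 (59.5%, beside 68.8% of all 64 members). The median of the mean FPKM was 3.48 to 3.62 with each animal left out, 2.09 with a junction or adhesion term and 4.45 without the clustered protocadherins, and the settings by GO term and this last one were chosen after seeing the data. The Spearman correlation of peak number and mean FPKM was 0.13 to 0.17 with each animal left out and 0.0099 on expressed members, and the cause was not tested. With a pseudocount of 0.1, the lowest r of any animal pair was 0.97. Rescaling the libraries moved none of 70 values for 35 named identifiers by 1 SD or more. The factors were 0.970 to 1.04 by FPKM sum and 0.998 to 1.005 by median ratio. Factors so close to 1 leave a mean over 3 animals little room to move, so this result says little about scaling. No paired analysis was possible because no IP value is given for a single animal and expression was listed for input alone. The peak list has no score, so a stricter threshold could not be tried, and without read numbers low FPKM values have no counting error.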
